A study of Mus musculus with 10 samples.

Results

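The number of wild-type Tdg alleles was compared with gene expression in 10 male mouse embryonic stem cell (ESC) lines, and all 10 lines of the series entered the comparison. ESCs are pluripotent cells grown from the inner part of the blastocyst. The lines were 4 Tdg-/- lines with 0 wild-type alleles, 3 Tdg+/- lines with 1 and 3 Tdg+/+ lines (wt) with 2. According to the labels all lines were of the C57BL/6 background and were kept without serum in 2i and LIF, the inhibitors and the cytokine that hold ESCs in the naive state. The study derived them from blastocysts of Tdg+/- parents, first on feeder cells and then without them, and each line was sequenced as 1 library of total RNA after ribosomal depletion. Which lines come from the same mating cannot be read from the labels, so all p values measure the spread between lines. Of 35427 annotated genes, 14105 had at least 20 reads in at least 1 line and were tested. The main measure was the slope of the log2 level on the number of wild-type alleles, where a positive slope means a higher level with more wild-type alleles. The other was the departure, the Tdg+/- level minus the mean of the Tdg-/- and wt levels on the log2 scale, which is 0 for a gene on a straight line through the 3 genotypes. A gene was called when its adjusted p from edgeR was under 0.05.

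TDG, thymine DNA glycosylase, cuts thymine out of G/T mismatches and removes the oxidized cytosines 5-formylcytosine and 5-carboxylcytosine. TET enzymes make these bases from 5-methylcytosine, and base excision repair then fills the gap with unmodified cytosine. This is the best known route of active DNA demethylation, and in ESCs it acts mainly at enhancers and CpG-rich promoters. TDG also binds nuclear receptors and the acetyltransferases CBP and p300. The comparison asks which genes were ordered by the number of wild-type alleles, and in which the Tdg+/- lines stood apart from both other genotypes.

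The libraries held 31095285 to 39916039 reads in genes, with a median of 36008472. ESC markers summed to 3700 to 4130 CPM (the reads of a gene scaled to the total of its library) in Tdg-/- lines, 3990 to 4400 CPM in Tdg+/- lines and 3930 to 4280 CPM in wt lines. Markers of feeder fibroblasts summed to 23.7 to 69.5 CPM in Tdg-/- lines, 13.3 to 89.8 CPM in Tdg+/- lines and 39.9 to 93.7 CPM in wt lines, and 0 of these 16 genes were called by the trend or the departure. In such bulk samples, fewer cells of a type and less RNA per cell cannot be told apart. Some libraries stood apart by transcript length. Among the shortest sixth of genes, with a median effective length of 496 bases, Tdg-/- lines 2, 3 and 4 had median levels of 0.29, 0.21 and 0.24 on the log2 scale relative to the median of the 10 lines, while Tdg-/- line 1 had -0.08. Among the longest sixth, with a median of 4404 bases, Tdg-/- lines 2, 3 and 4 had -0.33, -0.25 and -0.28, while Tdg-/- line 1 had 0.09. Tdg+/- line 3 leaned the other way, with -0.19 in the shortest and 0.25 in the longest class. The 3 wt lines stayed between -0.05 and 0.05 in both classes. Whole chromosomes also stood apart in some lines, chromosome 11 in the Tdg+/- lines and chromosome 16 in wt line 1, and these values are given beside the results they touch.

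**Figure D1:**
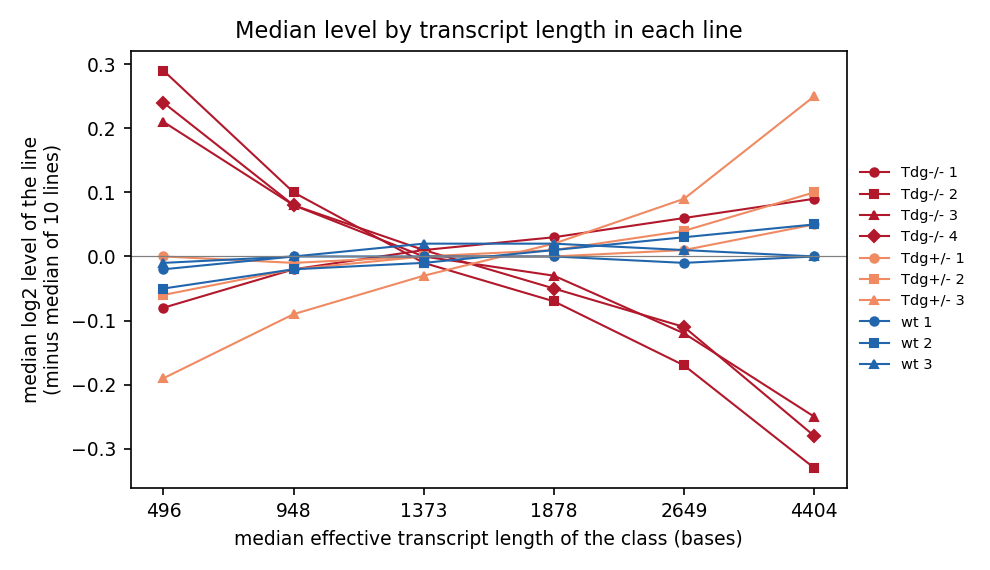
Median log2 level of each line relative to the median of the 10 lines (y axis) in 6 classes of genes by effective transcript length (x axis, median length of the class in bases). Red lines are Tdg-/-, orange Tdg+/- and blue wt. Tdg-/- lines 2, 3 and 4 run downwards to -0.33, -0.25 and -0.28 in the longest class, Tdg-/- line 1 ends at 0.09, the wt lines stay between -0.05 and 0.05, and Tdg+/- line 3 reaches 0.25.

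Tdg itself followed the labels in every line. It had 7.76, 10.6, 10.3 and 8.5 CPM in Tdg-/- lines, 40.3, 41.9 and 45.9 CPM in Tdg+/- lines, and 86.5, 91.1 and 93.2 CPM in wt lines. No line overlapped a line of another genotype. The means were 9.28 ± 1.37 CPM in Tdg-/- lines (SD, n = 4), 42.7 ± 2.88 CPM in Tdg+/- lines (SD, n = 3) and 90.3 ± 3.44 CPM in wt lines (SD, n = 3). The linear slope was 40.19 CPM per wild-type allele. An exact two-sided permutation test of this slope over the 4200 ways to assign the genotypes gave p = 0.000238, the smallest it can give. Since the genotype sets the order of Tdg, this test is only a check of the labels. The log2 slope was 1.66 with a standard error (SE) of 0.12 (adjusted p = 7.83e-05). On the linear scale the Tdg+/- mean of 42.7 CPM lay somewhat under 49.8 CPM, the midpoint of the other genotypes. All 3 Tdg+/- lines were below this midpoint. On the log2 scale, where equal steps in CPM are not equal steps, the departure was 0.56 with an SE of 0.111 (adjusted p = 0.0192). When the change in effective transcript length between lines was taken into account, the Tdg slope was 1.18 and the departure was 0.07 (adjusted p = 0.736). The departure was also not called without Tdg+/- line 2 (adjusted p = 0.126) or line 3 (adjusted p = 0.0921).

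The reads left in Tdg-/- lines were spread differently over the annotated Tdg transcripts, as far as the estimated reads per transcript can separate isoforms that share exons. The coding transcript Tdg-201 took 36.8%, 26.5%, 37.0% and 44.7% of the Tdg reads in Tdg-/- lines, 63.1%, 57.6% and 67.2% in Tdg+/- lines, and 69.3%, 66.2% and 58.6% in wt lines. The Tdg-/- lines were below all others. The intron-retaining transcript Tdg-207 took 25.9%, 28.3%, 23.6% and 30.6% in Tdg-/- lines, 11.2%, 10.5% and 8.9% in Tdg+/- lines, and 9.16%, 8.89% and 10.1% in wt lines. Not every transcript was in allele order. The non-coding Tdg-203 had 36, 31, 40 and 29 reads in Tdg-/- lines, 22, 32 and 42 reads in Tdg+/- lines, and 21, 24 and 22 reads in wt lines, so that the Tdg+/- lines overlapped both other genotypes.

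2 processed pseudogenes of Tdg went the other way, and both were chosen after their values were seen. Tdg-ps, on chromosome 15, had 57, 53, 39 and 33 reads in Tdg-/- lines, 15, 22 and 23 reads in Tdg+/- lines, and 1, 5 and 0 reads in wt lines. Tdg-ps2, on chromosome 10, had 72, 129, 96 and 80 reads in Tdg-/- lines, 60, 78 and 67 reads in Tdg+/- lines, and 7, 8 and 2 reads in wt lines. In neither did the trend pass the test, with slopes of -1.94 for Tdg-ps (adjusted p = 0.0581) and -1.69 for Tdg-ps2 (adjusted p = 0.155). Of the 31-base words of Tdg-ps, 69.2% also occur in Tdg transcripts, and 83.4% of those of Tdg-ps2 do, so reads of Tdg and of these copies cannot be fully told apart.

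Across all genes tested, 5 were called by the trend, which is 0.0354% of 14105. They were Tdg, Gm3055, Hal, Ndufa12 and 1190007I07Rik, and all 5 lie on chromosome 10, the chromosome of Tdg. In all 5 the 10 lines were fully ordered, meaning that no line overlapped a line of a neighbouring genotype. In 4 (0.0284%) the slope was positive and in 1190007I07Rik (0.00709%) it was negative. At an unadjusted p under 0.05, 1973 genes (14%) had a slope, 917 of them positive (6.5%) and 1056 negative (7.49%). The count of 5 depended on single lines: it was 2 without wt line 2, 2 without wt line 3, 3 without Tdg-/- line 2, 2 without Tdg-/- line 4, 10 without Tdg-/- line 1, 11 without wt line 1 and 8 without Tdg+/- line 3.

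Hal encodes histidine ammonia-lyase, the first enzyme of histidine breakdown, best known from liver and skin. It had 0.845, 1.24, 0.844 and 0.891 CPM in Tdg-/- lines, 2.33, 2.22 and 2.7 CPM in Tdg+/- lines, and 2.8, 5.78 and 4.89 CPM in wt lines. The genotypes did not overlap, although Tdg+/- line 3 and wt line 1 were nearly equal. These levels rest on 28 to 45 reads in Tdg-/- lines, 78 to 112 reads in Tdg+/- lines and 91 to 214 reads in wt lines. The coding transcript Hal-202 had 15, 23, 17 and 2 reads in Tdg-/- lines and 29, 22 and 44 reads in Tdg+/- lines. In wt lines it had 27, 59 and 44 reads, so neighbouring genotypes overlapped. Hal-201, annotated for nonsense-mediated decay, took 42.7% to 72.9% of the Hal reads in Tdg-/- lines. Its share was 45.6% to 58.3% in Tdg+/- lines and 50.5% to 64.4% in wt lines. The slope was 1.12 with an SE of 0.137 (adjusted p = 0.0113), and the departure was 0.22 (adjusted p = 0.557). When wt line 2, wt line 3 or line 4 of Tdg-/- was left out the slope stayed at 1.04 to 1.11 but was not called (adjusted p = 0.0703 to 0.114).

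Ndufa12 encodes an accessory subunit of complex I, the first enzyme of the mitochondrial respiratory chain. It had 24.6, 33.5, 35.8 and 35.5 CPM in Tdg-/- lines, 48.0, 55.7 and 44.4 CPM in Tdg+/- lines, and 59.6, 83.0 and 82.1 CPM in wt lines. Within Tdg-/- the lowest line was line 1, and within wt the lowest was line 1. The slope was 0.61 with an SE of 0.0812 (adjusted p = 0.0168), and the departure was 0.01 (adjusted p = 0.987), so the Tdg+/- lines lay almost on the log2 midpoint. The change was not shared by its transcripts. Its short coding transcript, of 566 bases, had 405, 687, 617 and 656 reads in Tdg-/- lines, 1257, 1657 and 1450 reads in Tdg+/- lines, and 1535, 2474 and 2135 reads in wt lines. The transcript annotated for nonsense-mediated decay, Ndufa12-203, had 404, 502, 639 and 531 reads in Tdg-/- lines, 319, 433 and 331 reads in Tdg+/- lines, and 374, 504 and 451 reads in wt lines. These reads of Ndufa12-203 overlapped between all genotypes, with the lowest counts in Tdg+/- lines 1 and 3. They are not scaled to the depth of each library, so overlap at equal depth was not tested. The share of Ndufa12-203 in the gene's reads was 41.3% to 50.3% in Tdg-/- lines. In Tdg+/- lines it was 18% to 20.3% and in wt lines 16.4% to 19.3%. The Ndufa12 slope was not called when wt lines 2 or 3 or Tdg-/- lines 2 or 4 were left out in turn (adjusted p = 0.0703 to 0.114). Of the 31-base words of Ndufa12, 20.2% also occur in Gm15920.

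The remaining 2 genes carry clone names, fall outside the rule for named genes and were chosen after their values were seen. 1190007I07Rik is a short protein-coding gene that starts head to head with Tdg, 0.01 Mb away and on the other strand. It had 19.9, 28.4, 26.1 and 25.1 CPM in Tdg-/- lines, 18.8, 17.4 and 14.5 CPM in Tdg+/- lines, and 11.7, 11.9 and 10.9 CPM in wt lines. Its order was the reverse of that of Tdg, with a slope of -0.56, an SE of 0.0737 and an adjusted p of 0.0168. The departure rounded to 0 (adjusted p = 0.994). The call was lost when any of wt lines 2 and 3 and Tdg-/- lines 2, 3 and 4 was left out (adjusted p = 0.0599 to 0.114). Its transcripts are 406 to 716 bases long, and the shortest genes had higher median levels in Tdg-/- lines 2, 3 and 4 as given above. With the length trend removed from each line the gene was still called. Of its 31-base words 21.8% also occur in other genes. The largest share, 17.7%, is with 1810014B01Rik, 4.06 Mb beyond Tdg, which had a slope of -0.57 (adjusted p = 0.337).

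Gm3055 is annotated as protein-coding and lies 0.86 Mb before Tdg. It had 1.9, 2.4, 2.95 and 3.18 CPM in Tdg-/- lines, 14.5, 13.6 and 7.45 CPM in Tdg+/- lines, and 19.4, 31.2 and 36.9 CPM in wt lines. The slope was 1.75 with an SE of 0.16 (adjusted p = 0.000652). A single long transcript, Gm3055-202, carried it, with 0, 0, 7 and 7 reads in Tdg-/- lines, 354, 433 and 247 reads in Tdg+/- lines, and 566, 1041 and 1016 reads in wt lines. The short transcript Gm3055-203 had 63 to 100 reads in Tdg-/- lines, 61 to 132 reads in Tdg+/- lines and 66 to 160 reads in wt lines, with full overlap. With transcript length taken into account the slope was 0.82 and was not called (adjusted p = 0.153). Of the 31-base words of Gm3055, 93.8% also occur in Zfp781, a zinc finger gene 0.7 Mb before Tdg, and none in Tdg. Gm3055 took 6.42% to 8.95% of the reads of this pair in Tdg-/- lines, 27.8% to 46.9% in Tdg+/- lines and 55.9% to 59.5% in wt lines. The pair together had 26.4, 34.1, 32.6 and 33.0 CPM in Tdg-/- lines, 32.6, 30.5 and 27.9 CPM in Tdg+/- lines, and 36.4, 54.3 and 66.6 CPM in wt lines, so that Tdg-/- and Tdg+/- lines overlapped while the wt lines were above both.

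A second pair in the same cluster, also chosen after its values were seen, behaved alike. Gm32687, 0.77 Mb before Tdg, had 0, 34, 7 and 9 reads in Tdg-/- lines, 301, 286 and 454 reads in Tdg+/- lines, and 608, 722 and 856 reads in wt lines. Its slope of 2.83 was steeper than that of Tdg but had an SE of 0.452 and missed the threshold (adjusted p = 0.0707). The few Gm32687 reads in Tdg-/- lines were mostly in line 2. Between Tdg-/- and wt lines directly, a comparison that rests on these few reads, Gm32687 was called at -5.91 (adjusted p = 0.000656). Its look-alike Zfp433, with which it shares 96.0% of its 31-base words, ran the other way, with 29.4, 46.3, 44.4 and 47.9 CPM in Tdg-/- lines, 26.3, 25 and 18.6 CPM in Tdg+/- lines, and 15.9, 24.4 and 27.9 CPM in wt lines (slope -0.46, adjusted p = 0.337). Gm32687 took at most 1.98% of the reads of the pair in Tdg-/- lines, 23% to 37.1% in Tdg+/- lines and 44.4% to 54.0% in wt lines. The sum of the pair overlapped between all 3 genotypes, with 30.4 to 44.8 CPM in Tdg-/- lines, 30.7 to 37.1 CPM in Tdg+/- lines and 36.2 to 55.8 CPM in wt lines.

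**Figure D2:**
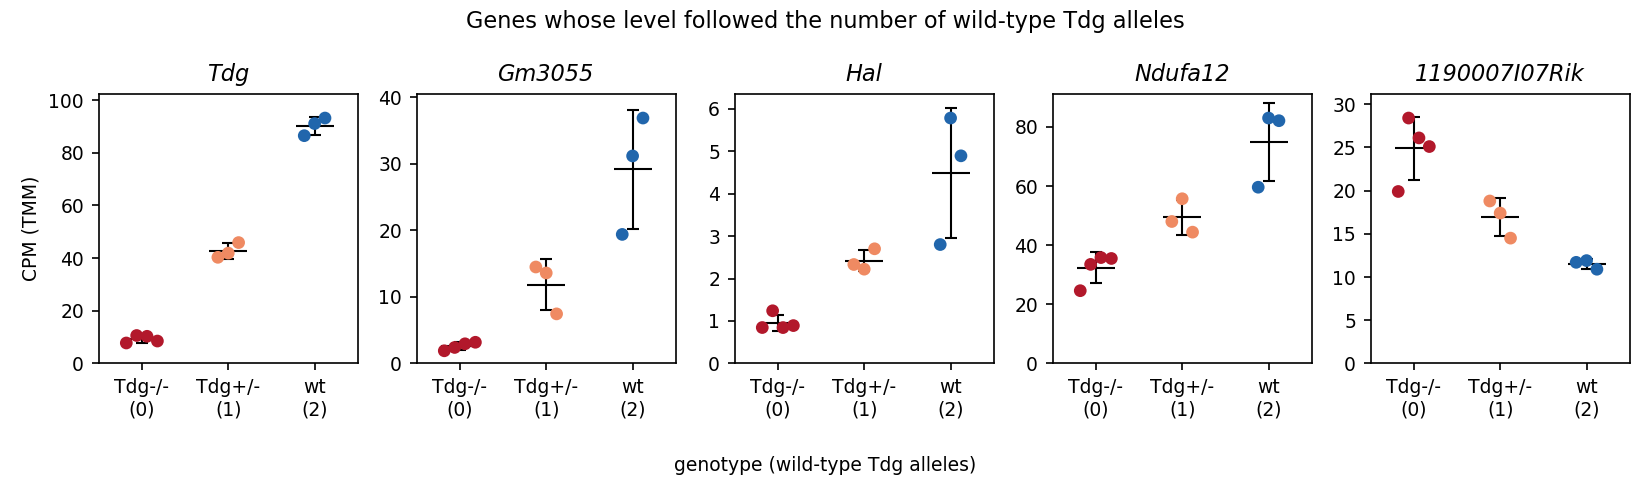
Level in CPM (y axis, linear, starting at 0) of the 5 genes called by the trend in each line (points) by genotype and number of wild-type Tdg alleles (x axis), with the mean and SD as black bars. Tdg sits at 7.76 to 10.6 CPM in Tdg-/- lines, 40.3 to 45.9 CPM in Tdg+/- lines and 86.5 to 93.2 CPM in wt lines. In each panel the 3 genotypes do not overlap, and 1190007I07Rik alone is highest in Tdg-/- lines.

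Because TDG acts on modified cytosines in CpG pairs, the promoters of the called genes are shown with each CpG in capitals, from 250 bases before to 50 bases after the start of the gene (RefSeq, GRCm38.p6). All 5 called genes had a promoter in this table. The first is that of Tdg at chr10:82629588-82629887 on the plus strand, the second that of its head-to-head neighbour 1190007I07Rik at chr10:82623179-82623478 on the minus strand, and the third that of Hal at chr10:93488518-93488817 on the plus strand.
Tdg: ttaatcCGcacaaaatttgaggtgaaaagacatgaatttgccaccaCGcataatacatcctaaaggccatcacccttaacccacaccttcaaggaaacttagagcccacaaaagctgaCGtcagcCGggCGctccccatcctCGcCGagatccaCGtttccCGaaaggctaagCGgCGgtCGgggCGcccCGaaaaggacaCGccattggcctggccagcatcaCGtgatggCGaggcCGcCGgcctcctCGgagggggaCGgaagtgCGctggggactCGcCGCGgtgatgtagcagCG
1190007I07Rik: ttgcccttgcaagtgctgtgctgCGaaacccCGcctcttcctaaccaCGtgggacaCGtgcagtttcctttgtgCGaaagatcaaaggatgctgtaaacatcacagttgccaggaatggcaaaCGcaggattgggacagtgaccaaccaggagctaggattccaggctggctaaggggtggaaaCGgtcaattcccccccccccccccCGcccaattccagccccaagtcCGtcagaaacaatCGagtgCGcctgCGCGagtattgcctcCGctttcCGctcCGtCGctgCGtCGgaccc
Hal: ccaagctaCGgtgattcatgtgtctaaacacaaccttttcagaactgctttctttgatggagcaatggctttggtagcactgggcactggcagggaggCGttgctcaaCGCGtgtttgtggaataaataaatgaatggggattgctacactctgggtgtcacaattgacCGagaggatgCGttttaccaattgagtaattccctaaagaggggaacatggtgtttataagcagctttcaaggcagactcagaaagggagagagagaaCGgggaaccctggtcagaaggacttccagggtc
The Tdg promoter held 26 CpG, and 16.8% of the 27025 promoters in the table held as many or more. That of 1190007I07Rik held 19 (28.4%), that of Ndufa12 held 25 (18.4%), that of Gm3055 held 10 (43.9%) and that of Hal held 7 (52.3%). Among the tested genes with a promoter in the table the median was 21 CpG, and 70.8% held 15 or more, so Hal and Gm3055 lay below most of the genes compared. Over 10292 tested genes with a promoter in the table, the median slope was 0.00 for 703 genes with 0 to 4 CpG, -0.01 for 2304 genes with 5 to 14 and 0.04 for 7285 genes with 15 or more, beside 0.02 over all genes tested. The shares with an unadjusted p under 0.05 were 12.4%, 13.6% and 13.8% in these classes.

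Slopes were unevenly placed along chromosome 10. Hal lies 10.86 Mb and Ndufa12 11.57 Mb beyond the start of Tdg, and the other called genes lie within 1 Mb of it, in distances of the GRCm38 annotation. Within 1 Mb, 3 of 24 tested genes were called, including Tdg, and 41.7% had an unadjusted p under 0.05, 3 with a positive and 7 with a negative slope. Within 5 Mb this share was 18.2% of 165 genes, over the whole chromosome 16.4% of 652 genes, and over the other chromosomes 13.9% of 13453 genes, of which 0 were called. Within 1 Mb 4 of the 24 genes were fully ordered (16.7%), beside 1.07% over chromosome 10 and 0.119% over the other chromosomes. They include Tdg, whose order the genotype sets, and Gm3055 and Gm32687. The look-alikes of Gm3055 and Gm32687, Zfp781 and Zfp433, are among the 7 negative slopes. The genes counted within 1 Mb are therefore not independent of each other. Among the genes close to Tdg with a negative slope was Gm4924, 0.28 Mb before it, with 59.6, 78.0, 73.7 and 77.4 CPM in Tdg-/- lines, 49.2, 39.0 and 34.1 CPM in Tdg+/- lines, and 32.9, 34.1 and 39.7 CPM in wt lines. Its Tdg+/- and wt lines overlapped, and the slope of -0.52 missed the threshold (adjusted p = 0.0769). A stretch of chromosome 10 is inherited with each Tdg allele, and its length in these lines was not measured. For genes close to Tdg, and also for Hal and Ndufa12, the allele number and the linked DNA cannot be told apart.

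**Figure D3:**
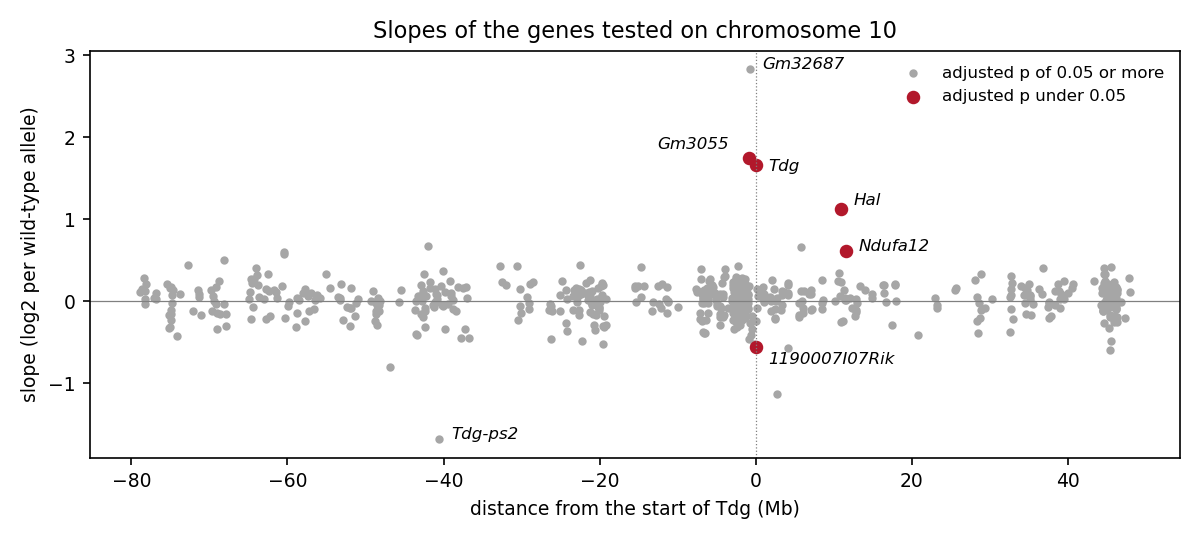
Slope in log2 per wild-type allele (y axis) of the 652 genes tested on chromosome 10 against the distance from the start of Tdg in Mb (x axis). Red points are the 5 called genes and grey points the others. Tdg, Gm3055 and 1190007I07Rik lie within 1 Mb of 0, Hal and Ndufa12 at 10.86 and 11.57 Mb, and Gm32687 has the highest slope at 2.83 without being called.

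The order of the genotype means was monotonic, with the Tdg+/- mean between the others, in 3650 genes (25.9%). The Tdg+/- mean was above both others in 5260 genes (37.3%) and below both in 5195 (36.8%). For genes without any genotype difference the Tdg+/- mean would also lie outside the others more often than between them. These shares are therefore no count of genes in which the Tdg+/- lines stood apart. Among the 3650 monotonic genes the Tdg+/- mean lay in the middle of the span in 1828, closer to the Tdg-/- mean in 658 and closer to the wt mean in 1164, where the middle is from 0.25 to 0.75 of the log2 span. Monotonic genes made up 62.4% of the 1973 genes with an unadjusted trend p under 0.05, a share that the slope itself raises. The share of monotonic genes was 16.9% on chromosome 11, 31.1% on chromosome 10 and 26.7% over all chromosomes but 11.

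Only 23 genes (0.163%) were fully ordered line by line, 13 with levels that increase (0.0922%) and 10 with levels that decrease (0.0709%) with the number of wild-type alleles. Of these, 7 lie on chromosome 10 and 16 elsewhere, and none of the 16 was called. The following were chosen after their values were seen. Rbm47, an RNA-binding protein that regulates splicing and acts as a cofactor of C-to-U editing, had 13.3, 10.5, 11 and 10.8 CPM in Tdg-/- lines, 15.3, 16.5 and 15 CPM in Tdg+/- lines, and 16.5, 18.5 and 17.3 CPM in wt lines (slope 0.31, SE 0.0674, adjusted p = 0.275). Naf1, an assembly factor of H/ACA ribonucleoproteins such as telomerase, had 15.7, 9.74, 12.2 and 11.4 CPM in Tdg-/- lines, 17.0, 17.4 and 16.4 CPM in Tdg+/- lines, and 19.3, 18.4 and 21.2 CPM in wt lines (slope 0.35, adjusted p = 0.337). In both, Tdg-/- line 1 was the Tdg-/- line closest to the other genotypes, as it was in transcript length. Gli2, a transcription factor of Hedgehog signalling, had 4.72 to 6.55 CPM in Tdg-/- lines, 6.77 to 7.81 CPM in Tdg+/- lines and 7.99 to 8.73 CPM in wt lines (slope 0.24, adjusted p = 0.337). Of the genes with decreasing levels, Rit1, a RAS-related GTPase, had 12.8 to 15 CPM in Tdg-/- lines, 11.2 to 11.5 CPM in Tdg+/- lines and 9.84 to 11.1 CPM in wt lines (slope -0.20, adjusted p = 0.337). Rps4x, a ribosomal protein, was fully ordered with a slope of only -0.07 and an unadjusted p of 0.165, and its slope was 0.01 with the length trend removed.

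Some of the steepest fitted slopes belonged to pseudogenes with reads in few lines. Of 12194 genes that averaged 1 CPM or more, 17 had a slope beyond 3 or a departure beyond 4 in either direction, and 14 of these were pseudogenes. None of them was called by the trend.

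None of the gene lists had a member called by the trend, and Tdg itself is in no list. Lists and members were chosen with earlier results of these data known. Their counts beside the shares over all genes are therefore a description and no independent test. The TET and DNMT enzymes, which write and oxidize DNA methylation, had a median slope of 0.16 over 8 genes. Tet1, the main TET enzyme of ESCs, had 114, 92.5, 102 and 87.4 CPM in Tdg-/- lines, 150, 107 and 122 CPM in Tdg+/- lines, and 122, 138 and 141 CPM in wt lines, with a slope of 0.22 (adjusted p = 0.337). The Tdg-/- and Tdg+/- lines overlapped by line 1 of Tdg-/- and line 2 of Tdg+/-. Tet1 also lies on chromosome 10, and its slope was 0.11 once the length trend was removed.

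The other DNA glycosylases had a median slope of -0.12 over 10 genes. Of these, 4 had a negative slope at an unadjusted p under 0.05 and 0 a positive one, beside 7.49% and 6.5% over all genes. Ung, which removes uracil, had 109, 124, 129 and 120 CPM in Tdg-/- lines, 98.4, 112 and 111 CPM in Tdg+/- lines, and 85.9, 110 and 105 CPM in wt lines (slope -0.13, adjusted p = 0.351). Smug1, a second uracil glycosylase, had 24.2, 24.2, 24.1 and 25.2 CPM in Tdg-/- lines, 22.4, 19.8 and 20.4 CPM in Tdg+/- lines, and 20.1, 21.5 and 20.4 CPM in wt lines (slope -0.13, adjusted p = 0.353), so that every Tdg-/- line was above every other line while Tdg+/- and wt overlapped. Mpg, which removes alkylated purines, and Ogg1, which removes 8-oxoguanine, had slopes of -0.27 (adjusted p = 0.337) and -0.17 (adjusted p = 0.35). In neither did the Tdg+/- mean on the log2 scale lie between the others. Mpg, on chromosome 11, averaged 16.8 CPM in Tdg-/- lines, 16.7 CPM in Tdg+/- lines and 11.3 CPM in wt lines. Ogg1 averaged 19.7 CPM in Tdg-/- lines, 14.4 CPM in Tdg+/- lines and 15.8 CPM in wt lines. The summed level of the list was 251 to 263 CPM in Tdg-/- lines, 244 to 257 CPM in Tdg+/- lines and 227 to 254 CPM in wt lines. The 15 genes of base excision repair after the glycosylase had a median slope of -0.01, and 1 of them, the replication clamp Pcna, had an unadjusted p under 0.05.

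Among 16 TDG partners 3 had a positive slope at an unadjusted p under 0.05 and 0 a negative one, beside 6.5% and 7.49% over all genes, with a list median of 0.06. Crebbp, which encodes CBP, had 18.7, 15.8, 14.4 and 14.5 CPM in Tdg-/- lines, 22.4, 22.5 and 23.7 CPM in Tdg+/- lines, and 26.6, 22.1 and 21.1 CPM in wt lines. The Tdg-/- lines were below all others, and Tdg+/- and wt lines overlapped (slope 0.29, adjusted p = 0.337). Its high wt line was line 1, and Crebbp lies on chromosome 16, whose median level was 0.40 in wt line 1 and -0.06 to 0.01 in the other 9 lines. On chromosome 16 as a whole 75 genes had a positive and 9 a negative slope at an unadjusted p under 0.05. Without wt line 1 the Crebbp slope was 0.26 (adjusted p = 0.385). Ep300, which encodes p300, had a slope of 0.14 (adjusted p = 0.355) and the retinoic acid receptor Rarg one of 0.26 (adjusted p = 0.341).

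Of 20 naive pluripotency factors 3 had a negative and 2 a positive slope at an unadjusted p under 0.05, beside 7.49% and 6.5% over all genes. Pou5f1, the core pluripotency factor OCT4, had 1140, 1890, 1570 and 1610 CPM in Tdg-/- lines, 1140, 1070 and 1150 CPM in Tdg+/- lines, and 1230, 1200 and 1020 CPM in wt lines (slope -0.23, adjusted p = 0.337). The 3 high lines were Tdg-/- lines 2, 3 and 4, the lines with the steep length pattern, while Tdg-/- line 1 was at the level of Tdg+/- line 1. Klf5 ran the other way, with 94.9, 56.1, 62.9 and 54.5 CPM in Tdg-/- lines, 77.8, 76.4 and 82.4 CPM in Tdg+/- lines, and 84.7, 95.1 and 103 CPM in wt lines (slope 0.24, adjusted p = 0.337), again with Tdg-/- line 1 among the wt levels. Zfp42, the naive marker REX1, had 158, 245, 221 and 240 CPM in Tdg-/- lines, 149, 153 and 150 CPM in Tdg+/- lines, and 160, 171 and 169 CPM in wt lines (slope -0.20, adjusted p = 0.341), with the same 3 Tdg-/- lines high. With the length trend removed the slopes were -0.22 for Pou5f1, 0.15 for Klf5 and -0.17 for Zfp42, and with the transcript length offset they were -0.26, 0.21 and -0.22. With 3 surrogate variables they were close to 0, at -0.02 for Pou5f1, 0.03 for Klf5 and 0.01 for Zfp42.

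The mitochondrially encoded genes had the highest list median, 0.34 over 13 genes. Of these, 7 had a positive slope at an unadjusted p under 0.05 and 0 a negative one, beside 6.5% and 7.49% over all genes. mt-Nd2, a complex I subunit, had 33.9, 28.3, 37.0 and 30.5 CPM in Tdg-/- lines, 68.9, 42.0 and 34.2 CPM in Tdg+/- lines, and 50.3, 53.4 and 71.4 CPM in wt lines (slope 0.43, adjusted p = 0.337). Tdg+/- line 3 was within the Tdg-/- range and Tdg+/- line 1 within the wt range. The list summed to 10300 to 12200 CPM in Tdg-/- lines, 12800 to 15800 CPM in Tdg+/- lines and 8990 to 16800 CPM in wt lines, with wt line 1 the lowest of all lines. All 13 share 1 genome and are read from long common transcripts, so they are not independent of each other. Without wt line 1, mt-Co2 and mt-Nd1 were called by the trend.

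Among 22 imprinted genes 6 had a positive and 2 a negative slope at an unadjusted p under 0.05, beside 6.5% and 7.49% over all genes, the shares against which the germline and glucocorticoid counts also stand. Peg3, a paternally expressed zinc finger gene, had 80.1, 56.3, 55.9 and 75.4 CPM in Tdg-/- lines, 85.8, 100 and 90.5 CPM in Tdg+/- lines, and 93.1, 101 and 81.6 CPM in wt lines (slope 0.24, adjusted p = 0.337). The Tdg-/- lines were below all others, with Tdg+/- and wt overlapping. Of 21 germline genes that promoter methylation keeps silent in somatic cells, 3 had a positive and 1 a negative slope at an unadjusted p under 0.05. The synaptonemal complex gene Sycp3 had a slope of 0.66 (adjusted p = 0.344) that rested on wt line 1, with 2.08, 1.82, 3.01 and 2.32 CPM in Tdg-/- lines, 5.78, 1.96 and 1.23 CPM in Tdg+/- lines, and 12.2, 2.59 and 2.79 CPM in wt lines. Of 20 genes induced by glucocorticoids 2 had a positive slope at an unadjusted p under 0.05, the metallothionein Mt2 (0.25, adjusted p = 0.337) and the cell cycle inhibitor Cdkn1a (0.20, adjusted p = 0.341). Nr3c1, the glucocorticoid receptor, had a slope of 0.05 (adjusted p = 0.773; -0.06 to 0.09 over the alternatives) at 8.49 to 11 CPM in Tdg-/- lines, 7.96 to 10.5 CPM in Tdg+/- lines and 9.57 to 11.4 CPM in wt lines. The genes of the 2-cell-like state were too low to be tested.

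The heterozygous lines stood apart in many more genes than followed the allele number. The departure was called in 836 genes (5.93%), 585 higher (4.15%) and 251 lower (1.78%) in Tdg+/- lines, and 3862 (27.4%) had an unadjusted p under 0.05. The balance of directions was not fixed either, with 3 higher and 7 lower without Tdg+/- line 2 and 1120 higher and 885 lower with DESeq2. In 833 of the 836 genes the step between Tdg-/- and Tdg+/- lines and the step between Tdg+/- and wt lines had opposite signs, and the 3 monotonic exceptions were Tdg, Tdg-ps2 and Gm32687. All 3 Tdg+/- lines were above all 7 other lines in 900 genes (6.38%) and below all of them in 597 (4.23%). Single lines decided this count: 10 genes were called without Tdg+/- line 2, 55 without Tdg+/- line 3, 237 without wt line 3, 315 without wt line 2, 285 without Tdg-/- line 3, 387 without Tdg-/- line 2, 1310 without Tdg+/- line 1, 1396 without wt line 1 and 3277 without Tdg-/- line 1. With transcript length in the fit the count was 529, and with the length trend removed from each line it was 910.

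Chromosome 11 carried a large share of these calls. Of its 1131 tested genes 318 were called as higher and 1 as lower in Tdg+/- lines (28.2%), against 2.81% to 4.97% of the genes called on each other chromosome. The median departure on chromosome 11 was 0.40, against -0.126 to 0.035 on the others. Its median level was 0.20, 0.42 and 0.27 in Tdg+/- lines, -0.03, -0.10, -0.17 and 0.05 in Tdg-/- lines, and -0.09, -0.08 and -0.13 in wt lines, on the log2 scale relative to the median of the 10 lines. All 3 Tdg+/- lines were above all other lines, and line 2 was the highest. The median departure of chromosome 11 was between 0.33 and 0.42 when any single line was left out. On the other chromosomes 267 genes were called as higher and 250 as lower, 3.98% of 12974. The median slope of chromosome 11 was 0.00, and 0 of its genes were called by the trend.

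**Figure D4:**
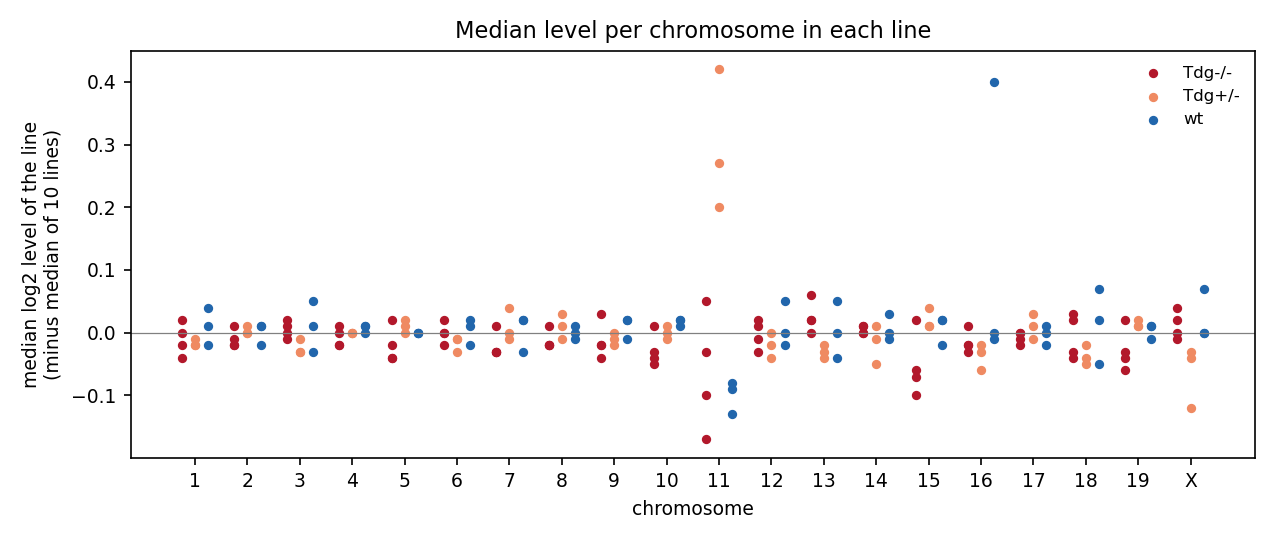
Median log2 level of the genes on each chromosome (x axis) in each line, relative to the median of the 10 lines (y axis), with Tdg-/- lines in red, Tdg+/- lines in orange and wt lines in blue. On chromosome 11 the 3 Tdg+/- lines are at 0.20, 0.42 and 0.27 and all other lines at or below 0.05, and on chromosome 16 wt line 1 is at 0.40.

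The genes with the largest departures had no slope that passed the test. Among those higher in Tdg+/- lines, Usp26, an X-linked ubiquitin protease known from testis, had 6.35, 22.2 and 5.42 CPM in Tdg+/- lines, 0.392, 1.52, 0.563 and 6.12 CPM in Tdg-/- lines, and 0.0922, 0.46 and 0.376 CPM in wt lines. Its departure was 3.78 with an SE of 0.716 (adjusted p = 0.0165). Tdg-/- line 4 was within the Tdg+/- range. The same line was the highest Tdg-/- line in Obox6, a homeobox gene of oocytes and early embryos, which had 8.56, 15 and 4.72 CPM in Tdg+/- lines, 0.785, 0.993, 0.844 and 4.66 CPM in Tdg-/- lines, and 0.615, 1.43 and 1.1 CPM in wt lines (departure 2.77, adjusted p = 0.0149). It was also the highest in Zscan5b, a zinc finger gene, which had 7.27, 20.5 and 7.06 CPM in Tdg+/- lines, 2.32, 3.06, 2.11 and 7.52 CPM in Tdg-/- lines, and 1.14, 1.11 and 1.13 CPM in wt lines (departure 2.5, adjusted p = 0.0113). Slc38a4, an imprinted amino acid transporter, had 88.0, 112 and 55.0 CPM in Tdg+/- lines, 10.2, 10.7, 18.3 and 34.7 CPM in Tdg-/- lines, and 34.6, 16.8 and 19.9 CPM in wt lines. Here the Tdg+/- lines were above all others, and the departure was 2.02 with an SE of 0.35 (adjusted p = 0.0134). Col2a1, a fibrillar collagen of cartilage, had 3.05, 4.99 and 5.52 CPM in Tdg+/- lines, 1.05 to 2.14 CPM in Tdg-/- lines and 1.01 to 1.38 CPM in wt lines (departure 1.76, adjusted p = 0.0113). Nxf3, Chit1, Neu3, Crxos and Txlnb had departures of 1.61 to 2.4.

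Among genes lower in Tdg+/- lines, Emp1, an epithelial membrane protein, had 13.2, 3.63 and 12.9 CPM in Tdg+/- lines, 33.8, 33.9, 28.9 and 29.2 CPM in Tdg-/- lines, and 32.0, 28.7 and 23.4 CPM in wt lines. Its departure was -1.58 with an SE of 0.316 (adjusted p = 0.0192), and line 2 was the lowest of the Tdg+/- lines. F3, which encodes tissue factor, the starter of blood clotting, had 2.24, 0.863 and 1.45 CPM in Tdg+/- lines, 3.33 to 4.87 CPM in Tdg-/- lines and 3.66 to 4.27 CPM in wt lines (departure -1.37, adjusted p = 0.0183). Mei4, which takes part in meiotic double-strand breaks, had 2.42, 1.46 and 1.06 CPM in Tdg+/- lines, 2.98 to 4.28 CPM in Tdg-/- lines and 3.78 to 5.05 CPM in wt lines (departure -1.28, adjusted p = 0.0191). In Emp1, F3 and Mei4 the Tdg+/- lines were below all others. Zmat4, Tmem47, Tent5a, Gulp1, Fam83b, Mid1 and Sema3c had departures of -1.61 to -1.21. In 8 of the 10 genes named as lower, Tdg+/- line 2 was the lowest Tdg+/- line, and in Fam83b and Mei4 it was line 3. Of 50 genes chosen for the text or the gene lists with a called departure, 48 were no longer called without Tdg+/- line 2 and 41 without Tdg+/- line 3.

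**Figure D5:**
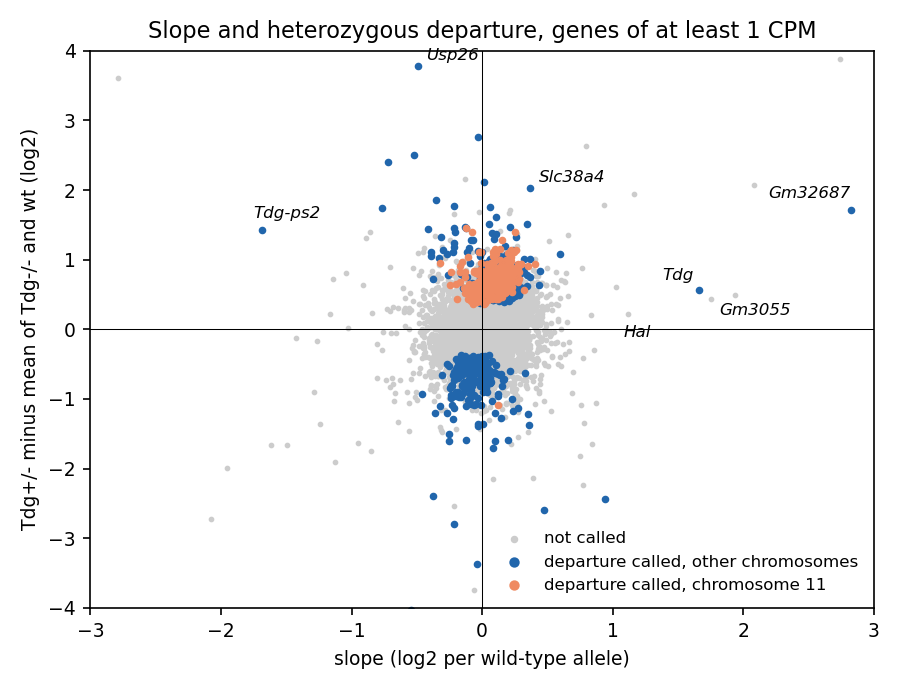
Departure of the Tdg+/- lines in log2 (y axis) against the slope in log2 per wild-type allele (x axis) for genes that averaged 1 CPM or more; 17 of 12194 genes lie outside the axes. Orange and blue points are called departures on chromosome 11 and on other chromosomes, and grey points are not called. The orange points lie above 0, except 1, at slopes near 0, while Tdg, Gm3055, Gm32687 and Hal lie far to the right.

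In the gene lists, called departures were few and mixed with chromosome 11. As the lists were chosen with earlier results of these data known, a count above the share over all genes is no independent support. Of 19 interferon-stimulated and MHC class I genes 4 were called, all higher in Tdg+/- lines, beside 4.15% of all genes called as higher and 1.78% called as lower. The list median was 0.31, against 0.003 over all genes. Rnf213, a large ubiquitin ligase, had 57.3, 61.0 and 55.9 CPM in Tdg+/- lines, 31.7, 18.8, 22.5 and 22.3 CPM in Tdg-/- lines, and 30.2, 30.2 and 30.6 CPM in wt lines. The Tdg+/- lines were above all others, and the departure was 1.11 with an SE of 0.135 (adjusted p = 0.0113). Rnf213 lies on chromosome 11, and it kept its call in each of the 20 alternatives in which it was tested, with departures of 0.81 to 1.20. H2-T22, a class I MHC gene on chromosome 17, had 17.3, 17.2 and 16.3 CPM in Tdg+/- lines, 6.97, 10.6, 8.13 and 12.8 CPM in Tdg-/- lines, and 6.18, 6.51 and 6.43 CPM in wt lines (departure 1.11, adjusted p = 0.0113). Ifi27 and Ifi35 were the other called members. Without the 3 members on chromosome 11 the list median was 0.17.

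Of 15 Wnt and beta-catenin targets 4 were called as higher in Tdg+/- lines, beside 4.15% of all genes called as higher. All 4, Tcf7, Znrf3, Axin2 and Notum, lie on chromosome 11, where 28.2% of all tested genes were called. The list median was 0.48, and 0.36 without its 5 members on chromosome 11. Tcf7, a transcription factor of the pathway, had 22.2, 26.1 and 22.6 CPM in Tdg+/- lines, 15.7, 10.4, 11.5 and 15.6 CPM in Tdg-/- lines, and 16, 15.4 and 15.4 CPM in wt lines (departure 0.71, adjusted p = 0.0178). Lefty2, a NODAL antagonist on chromosome 1, had 295, 574 and 634 CPM in Tdg+/- lines, 158, 239, 179 and 285 CPM in Tdg-/- lines, and 102, 174 and 193 CPM in wt lines (departure 1.45, adjusted p = 0.0133). Its lowest Tdg+/- line was just above its highest Tdg-/- line. Rara, a retinoic acid receptor and TDG partner on chromosome 11, had a departure of 0.81 (adjusted p = 0.0164), and Ncor1, a corepressor of nuclear receptors on the same chromosome, one of 0.59 (adjusted p = 0.0242).

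The ATF4 and unfolded protein response genes had a median departure of -0.30 over 24 genes, with 1 called higher and 3 lower, beside 4.15% and 1.78% over all genes. The one higher was Xbp1, a transcription factor of the unfolded protein response on chromosome 11, with 89.0, 109 and 91.8 CPM in Tdg+/- lines, 46.6 to 61.8 CPM in Tdg-/- lines and 46.6 to 56.6 CPM in wt lines (departure 0.85, adjusted p = 0.0113). Cth, which makes cysteine from cystathionine, was lower, with 193, 150 and 154 CPM in Tdg+/- lines, 236 to 256 CPM in Tdg-/- lines and 214 to 256 CPM in wt lines (departure -0.54, adjusted p = 0.0192). Calr and Psat1 were the other members called as lower. Of 25 genes of cholesterol synthesis 2 were called as lower, Hmgcs1 (departure -0.61, adjusted p = 0.0224) and Msmo1 (-0.59, adjusted p = 0.0149), and 1 as higher, their regulator Srebf1 on chromosome 11, beside the same shares. The naive pluripotency genes Dppa2 (departure -0.73, adjusted p = 0.0388) and Dppa4 (-0.58, adjusted p = 0.0448) were called as lower, and both lie on chromosome 16, where wt line 1 was high. The germline genes had the lowest list median, -0.51 over 21 genes, with 8 lower and 2 higher at an unadjusted p under 0.05, beside 12.3% and 15.1% of all genes, and 0 called by edgeR.

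Both allele steps were rarely called together. Between Tdg-/- and Tdg+/- lines 1834 genes were called (13.0%), 722 higher (5.12%) and 1112 lower (7.88%) in Tdg-/- lines, and between Tdg+/- and wt lines 23 were called (0.163%), 14 higher (0.0993%) and 9 lower (0.0638%) in Tdg+/- lines. The comparisons share the Tdg+/- lines. In 21 genes both steps were called, 20 with opposite directions, and Tdg was the only gene in which both steps were called in the same direction. Without Tdg-/- line 2 the first step was called in 12 genes, and without Tdg-/- line 1 in 5074. A difference among the 3 genotypes of any kind was called in 517 genes (3.67%). Directly between Tdg-/- and wt lines 9 genes were called (0.0638%), the 5 genes of the trend, Gm32687, Gm4924, Tdg-ps2 and Tdg-ps, of which 8 lie on chromosome 10. Of these, 4 were higher (0.0284%) and 5 lower (0.0354%) in Tdg-/- lines.

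The genes of the departure also differed in transcript length, as the libraries did. Genes called as higher in Tdg+/- lines had a median effective length of 2533 bases, or 2820 bases off chromosome 11, and those called as lower had 1269 bases, against 1625 bases over all genes tested. Of the 251 genes called as lower 34 were pseudogenes (13.5%), against 4 of the 585 called as higher. Over the 6 length classes the median departure ran upwards with length, with -0.17 in the shortest and 0.23 in the longest, and the median slope with -0.12 in the shortest and 0.12 in the longest. The median difference between Tdg-/- and wt lines was 0.22 in the shortest and -0.22 in the longest class. Between Tdg-/- and Tdg+/- lines the pattern was steeper, with 0.29 in the shortest and -0.36 in the longest class. Genes called as higher in Tdg-/- than in Tdg+/- lines had a median effective length of 982 bases. Those called as lower had 2840 bases. The part of transcript length in single genes was not tested beyond the fits with length named above.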

How the data were processed

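Total RNA of 10 ESC lines was sequenced after ribosomal depletion, 1 library for each line. The authors quantified transcripts with Salmon 0.8.1 on a GRCm39 transcriptome and deposited an estimated count and a TPM value for each transcript. The deposited estimated counts of all transcripts of a gene were added and then rounded. TPM, which the authors scaled to transcript length and depth, served to weight the effective lengths of a gene's transcripts. No level is given in TPM. Of 116357 transcripts 98.97% were paired with a gene of the GRCm38 annotation, which gave names and distances; 0 columns were left unassigned. Reads in genes numbered 31095285 to 39916039 for each line. Genes that reached 20 reads in any line were fitted in edgeR 4.0.16 (R 4.3.3) with TMM factors and the quasi-likelihood test, once on the number of wild-type alleles and once on the genotype, with Benjamini-Hochberg adjustment over all genes tested. CPM were scaled with the same factors. The fits were tested on simulated data.

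Named genes were Tdg, the called trend genes with a full symbol, up to 12 in each direction, the 10 called departures in each direction with the largest change and a mean of at least 1 CPM, up to 4 members of each list with the smallest trend p and up to 2 with the smallest departure p, and a receptor gene that the study discusses, Nr3c1. Another gene under this rule is not reported here. Members and lists were chosen with earlier results of these data known. Alternatives used DESeq2 1.42.0, limma 3.58.1, 3 surrogate variables (sva 3.50.0), other factors and filters, a transcript length offset, a replicate block, and leaving out chromosomes 11 and 16 or each line. How the mutant allele was made is not given in the sources used here.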

Additional observations from a re-analysis of the deposited data

Results flagged for a closer look

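Among 111 measures over the 4 Tdg-/- lines, 6 had 1 line far from the other 3 by Dixon's criterion. Chance alone meets it in about 1 of 20 groups, so 6 of 111 is close to the share that chance gives. The measures also share genes and lines. Tdg-/- line 1 had the highest summed level of the TET and DNMT enzymes, 1230 CPM against 795 to 868 CPM in the other Tdg-/- lines. The same line had the highest sum of the developmental CpG island genes, 111 CPM against 87.9 to 88.4 CPM. Tdg-/- line 4 stood apart in 3 genes, with 4.66 CPM of Obox6 against 0.785 to 0.993 CPM, 15.6 CPM of Mid1 against 23.4 to 24.5 CPM, and 25.2 CPM of Smug1 against 24.1 to 24.2 CPM. Tdg-/- line 2 had 1.24 CPM of Hal against 0.844 to 0.891 CPM.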

How the results depend on the processing

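Tdg kept its slope call under all 21 alternatives (1.18 to 1.73), and its level per allele was 39 to 40.7 CPM when each line was left out. The trend count of 5 was 12 with genes of at least 1 read, 51 with DESeq2, 10 with 3 surrogate variables and 2 to 11 when a line was left out. Taken as the slope of the 3-genotype fit, an alternative chosen after seeing the data, it was 9. The departure count of 836 was 2005 with DESeq2, 529 with the transcript length offset, 3426 with 3 surrogate variables, 285 without chromosomes 11 and 16, and 10 to 3277 when a line was left out. The count of 1834 between Tdg-/- and Tdg+/- lines was 3455 with DESeq2, 817 with the length offset, 3517 with 3 surrogate variables and 12 to 5074 when a line was left out. The count of 23 between Tdg+/- and wt lines was 232 with genes of at least 1 read, 740 with DESeq2, 3 with the length offset, 824 with 3 surrogate variables, 3 without chromosomes 11 and 16, 132 with the length trend removed from each line, also chosen after seeing the data, and 0 to 385 when a line was left out. The count of 517 for any difference was 954, 3036, 83, 2769 and 129 under the first 5 of these settings and 8 to 4996 when a line was left out. The cause was not tested. Among the genes recomputed, slopes that were not called changed sign in 4: Zfp42 (0.01) and Pcna (0) with 3 surrogate variables, Rps4x (0.01) with the length trend removed, and Nr3c1 with 3 surrogate variables (-0.06), with the length trend removed (-0.05) and without wt line 3 (0, with 0 to 0.09 over the lines left out). The trend calls were 4 positive and 1 negative, but 24 and 27 with DESeq2 and 4 and 6 without Tdg-/- line 1.

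The labels do not say whether replicate numbers pair the lines. Deviations of same-numbered lines correlated at -0.12 to 0.2 over 9 pairs, and those of other lines at -0.23 to 0.3. With so few lines behind each genotype mean, these ranges cannot decide whether lines were paired. With a replicate block the trend count was 6, the departure count 392, the count between Tdg-/- and Tdg+/- lines 70, that between Tdg+/- and wt lines 57 and that for any difference 80. Hal (adjusted p = 0.0706) and 1190007I07Rik (adjusted p = 0.141) were not called under the block, nor 1190007I07Rik with 3 surrogate variables (adjusted p = 0.0875).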
